A study of Rattus norvegicus with 16 samples.

Results

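The response of the wild-type right ventricle to pressure load was examined in 8 RNA sequencing libraries, 4 from banded and 4 from sham-operated hearts, out of the 16 libraries of the series. The members were chosen by their labels alone. WT PAB libraries came from wild-type female Sprague Dawley rats, 20 to 21 weeks old, after 10 weeks of pulmonary artery banding, a surgical narrowing of the vessel into which the right ventricle ejects. WT SHAM libraries came from rats of the same strain, sex, age and genotype after sham surgery. The other 8 libraries, KO PAB and KO SHAM, came from ERalpha-/- rats, mutant for the estrogen receptor alpha and named KO below, after the same surgeries, and are used only where the response of the wild type is set beside theirs. Each library was made from mRNA of 10 mg of right ventricle with a stranded kit. Whether the 4 replicates of each group are 4 animals is not stated, so a p-value here reflects only how much these libraries vary, which may be technical. They do not give the pressure behind the band or the weight of any ventricle.

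The right ventricle normally works against the low pressure of the lung circulation. Under sustained pressure its cardiomyocytes enlarge, and the loaded heart is known for a return of fetal genes: the natriuretic peptides, which relax vessels and increase salt excretion, skeletal alpha-actin, and in rodents the slow beta myosin heavy chain beside the fast alpha chain. Stretch is sensed in part at the Z-disc, the anchor of the thin filaments and of titin, where several ankyrin-repeat and LIM-domain proteins are induced by load. Fibroblasts of a loaded ventricle can lay down collagen and other matrix.

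Levels are given as CPM, the usual depth-scaled unit, in which each count is taken relative to the TMM-adjusted total of its library. A difference is a log2 fold change of WT PAB over WT SHAM with its standard error (SE), from edgeR's quasi-likelihood test, and an adjusted p is the Benjamini-Hochberg value over all 13458 genes tested. Total counts were 27733987 to 32411398 in WT PAB and 22168110 to 27598074 in WT SHAM, and mitochondrially encoded transcripts took 35.0% to 39.7% and 34.3% to 40.7% of them. Esr1, which encodes ERalpha, had 70 to 131 counts in WT PAB and 91 to 139 in WT SHAM.

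Both groups held libraries that stood apart. On the first principal component of the 8 libraries, with 54.3% of the variance, WT SHAM 2 scored 62.6 and WT SHAM 3 scored 21.7, and the other 6 libraries scored between -18.0 and -0.9. The second component, with 14.4% of the variance, had WT PAB 1 at its end with 29.7. WT SHAM 2 had the highest value of all 8 libraries for 29.9% of the genes tested and the lowest for 28.5%, and WT PAB 1 the highest for 17.0% and the lowest for 16.5%.

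Adipoq, the gene of the fat cell hormone adiponectin, had 0.115, 0.355, 0.0319 and 0 CPM in WT PAB 1 to 4, against 0.0461, 45.6, 28.1 and 0 CPM in WT SHAM 1 to 4. Plin1, which coats fat droplets, was at 0 to 0.0969 CPM in WT PAB, against 0, 11.2, 10.6 and 0 CPM in WT SHAM 1 to 4. Both were thus at or near 0 in 6 of the 8 libraries. The brown fat uncoupling protein gene Ucp1, named after its values were seen, had 1396 counts in WT SHAM 3 and 0 in each of the other 7 libraries, and was not tested.

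Msln, a surface protein of the mesothelium that covers the heart, had 0.961, 3.52, 0.0319 and 1.00 CPM in WT PAB 1 to 4, against 7.83, 43.9, 20.5 and 0.164 CPM in WT SHAM 1 to 4. Muc16, a mucin of the same cells, had at most 0.872 CPM in WT PAB, against 2.17, 16.5, 6.34 and 0 CPM in WT SHAM 1 to 4. WT SHAM 1 therefore also carried mesothelial transcripts, at a lower level, while WT SHAM 4 was at the level of the banded libraries. Summed over the 13 tested mesothelial markers, the level was 26.95 to 36.31 CPM in WT PAB, against 49.36, 190.4, 97.78 and 24.91 CPM in WT SHAM 1 to 4.

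Myh11, the smooth muscle myosin, had 82.3, 68.9, 35.1 and 42.5 CPM in WT PAB 1 to 4, against 34.8, 1031, 291 and 107 CPM in WT SHAM 1 to 4. The smooth muscle actin-binding gene Tagln had 15.0 to 48.1 CPM in WT PAB, against 15.6, 661, 229 and 61.7 CPM in WT SHAM 1 to 4. The 18 cardiomyocyte markers summed to 70260 to 73310 CPM in WT PAB, against 74790, 41690, 57920 and 79870 CPM in WT SHAM 1 to 4. WT SHAM 2 and WT SHAM 3 were thus low in cardiomyocyte and high in several other markers. In pieces of tissue, fewer cells of a type and less RNA per cell cannot be told apart. Results are given below with all 8 libraries and, where it matters, without WT SHAM 2 and WT SHAM 3.

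**Figure D1:**
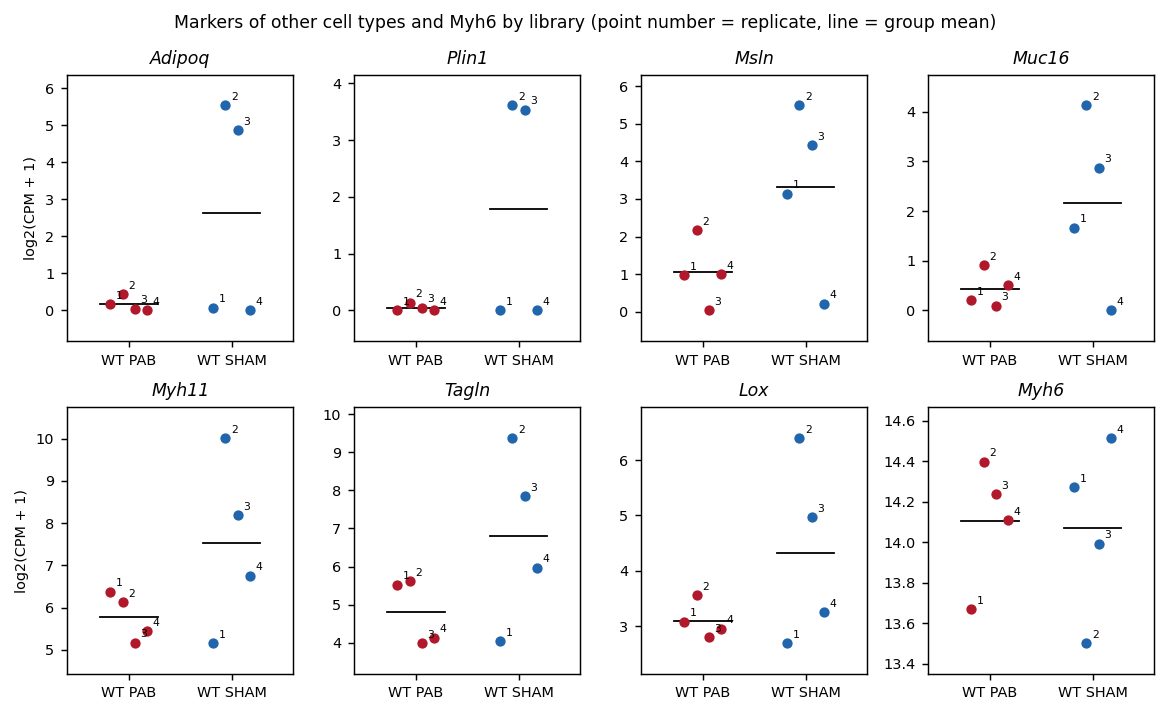
Levels, as log2(CPM + 1), of adipocyte (Adipoq, Plin1), mesothelial (Msln, Muc16) and smooth muscle (Myh11, Tagln) markers, the matrix cross-linking enzyme gene Lox and the cardiomyocyte myosin Myh6 in each WT PAB (left, red) and WT SHAM (right, blue) library; numbers are replicates and bars are group means. WT SHAM 2 and 3 hold the 2 highest values of Adipoq, Plin1, Msln, Muc16, Myh11, Tagln and Lox, and WT SHAM 2 the lowest of Myh6.

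With all 8 libraries, 1 gene passed the adjusted test, higher in WT PAB (0.00743% of the 13458 tested), and none was lower. At an unadjusted p below 0.05, 1575 genes differed (11.7%), of which 733 were higher (5.45%) and 842 lower (6.26%). In 350 genes (2.60%) every WT PAB library lay above every WT SHAM library, and in 313 (2.33%) every one lay below. DESeq2 on the same counts called 108 genes at an adjusted p below 0.05 (0.802%), 87 higher and 21 lower (0.646% and 0.156%), and limma-voom called none. Without WT SHAM 2 and 3, edgeR called 0 genes at an adjusted p below 0.05, and 775 of 13717 at an unadjusted p below 0.05 (5.65%), 443 higher (3.23%) and 332 lower (2.42%). The single genes below are therefore given with their values in each library, and most did not pass the adjusted test.

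The gene that passed was Dusp15, which encodes a small membrane-anchored member of the dual-specificity phosphatases, enzymes that remove phosphate from tyrosine and from serine or threonine. Dusp15 had 14.6, 5.91, 7.12 and 4.74 CPM in WT PAB 1 to 4, against 1.57, 1.32, 2.11 and 1.32 CPM in WT SHAM 1 to 4, from 123 to 381 counts in WT PAB and 32 to 59 in WT SHAM. All 4 banded libraries lay above all 4 sham libraries, and WT PAB 1 was the highest. Dusp15 rose under banding, by 2.36 on the log2 scale (SE 0.30, adjusted p 0.0143). In the KO rats the banding difference of Dusp15 was 2.07 (SE 0.30, adjusted p 0.0202).

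The test of Dusp15 was passed in 11 of 18 alternative fits, with log2 fold changes of 1.91 to 2.54 and adjusted p of 7.94e-10 to 0.578. It was lost without WT SHAM 1 (adjusted p 0.107), without WT SHAM 2 (0.109), without WT SHAM 4 (0.0751) and without WT SHAM 2 and 3 together (0.401). With WT PAB 1 left out it was kept, with a log2 fold change of 1.91 (adjusted p 0.00251). The size of the difference thus moved little while the call depended on the libraries and the tool.

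Of 21 tested dual-specificity phosphatases, 7 were higher and 1 lower at an unadjusted p below 0.05 (5.45% and 6.26% of all genes), and in 6 all banded libraries lay above all sham libraries (2.60% of all genes). Leaving out WT SHAM 2 and 3, 4 were higher and 2 lower (3.23% and 2.42% of all genes), and 7 lay above and 4 below WT SHAM 1 and 4 without overlap (8.11% and 9.11%). Their median log2 fold change was -0.02, against -0.015 over all genes tested. Dusp8, whose product acts on the stress kinases JNK and p38, had 16.5, 9.18, 13.7 and 12.6 CPM in WT PAB 1 to 4, against 5.85, 4.95, 6.23 and 8.63 CPM in WT SHAM 1 to 4. The groups did not overlap, and the log2 fold change was 1.02 (SE 0.20, adjusted p 0.179). Dusp16, directed at JNK, had 11.5 to 14.3 CPM in WT PAB, against 8.13 to 10.6 CPM in WT SHAM (0.46, SE 0.12, adjusted p 0.23). Dusp3, a small phosphatase of ERK and JNK, had 170.5 to 239 CPM in WT PAB, against 122 to 153 CPM in WT SHAM (0.46, SE 0.12, adjusted p 0.233).

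Dusp26 and Dusp6 were named after their values were seen. Dusp26 had 3.46 to 7.53 CPM in WT PAB, against 1.29 to 3.21 CPM in WT SHAM (1.33, SE 0.52, adjusted p 0.38). Dusp6, the cytoplasmic phosphatase of ERK, was the 1 member that was lower, with 7.61, 12.5, 10.4 and 12.2 CPM in WT PAB 1 to 4, against 15.9, 13.5, 11.8 and 16.1 CPM in WT SHAM 1 to 4 (-0.42, SE 0.16, adjusted p 0.377). Dusp9 had 0 counts in all 8 libraries and was not tested.

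Promoter sequence is shown for Dusp15 and for 4 load-responsive genes described next, chosen as the gene that passed the test and as known targets of cardiac load. Windows of 250 bases upstream of the annotated start are from RefSeq (rat build GRCr8, not the build of the counts), read 5′ to 3′ on the strand of the gene. 4 motifs were searched on both strands: MCAT (CATTCC, bound by TEAD factors), the CArG box (bound by serum response factor), a TATA box (TATAAA) and a GATA site (AGATAA). Matches are in capitals, and none of them overlap in these 5 windows. The motifs occur in 12.1%, 1.5%, 12.9% and 10.3% of all 33469 rat windows of the same length. The Dusp15 window (chr3:161879251-161879500, minus strand) held none of the 4 motifs, with a GC content of 77.2% against a median of 51.2% over all windows. The Acta1 window (chr19:68784195-68784444, minus strand) held a CArG box, an MCAT motif and a TATA box, whose first bases lie 94, 67 and 29 bases before the start.
Dusp15: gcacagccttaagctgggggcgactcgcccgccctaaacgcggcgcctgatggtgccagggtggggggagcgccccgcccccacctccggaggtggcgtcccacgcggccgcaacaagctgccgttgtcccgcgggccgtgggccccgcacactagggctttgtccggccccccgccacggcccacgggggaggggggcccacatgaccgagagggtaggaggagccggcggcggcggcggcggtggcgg
Acta1: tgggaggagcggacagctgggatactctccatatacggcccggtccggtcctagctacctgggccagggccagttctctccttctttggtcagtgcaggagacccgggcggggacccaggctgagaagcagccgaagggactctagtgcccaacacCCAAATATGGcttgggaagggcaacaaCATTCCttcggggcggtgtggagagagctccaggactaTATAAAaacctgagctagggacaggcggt

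Acta1, skeletal alpha-actin, had 3711, 1672, 1261 and 939.9 CPM in WT PAB 1 to 4, against 219, 374, 477 and 326 CPM in WT SHAM 1 to 4. The groups did not overlap, and WT PAB 1 stood highest. The log2 fold change was 2.44 (SE 0.47, adjusted p 0.179; DESeq2 adjusted p 1.8e-05), and 2.80 without WT SHAM 2 and 3. Among the 19 tested sarcomere isoform genes, 4 were higher and 1 lower at an unadjusted p below 0.05 (5.45% and 6.26% of all genes), with a median of 0.31, and of 0.07 without the 2 sham libraries.

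Myh7, the slow beta myosin heavy chain, had 18042, 5572, 4188 and 8001 CPM in WT PAB 1 to 4, against 1579.8, 3662, 3698 and 2592 CPM in WT SHAM 1 to 4. All banded libraries lay above all sham libraries, but WT PAB 3 exceeded WT SHAM 3 only slightly (1.63, SE 0.41, adjusted p 0.23). Myh6, the fast alpha chain of the adult rodent ventricle, had 13010.0, 21580.0, 19311 and 17665 CPM in WT PAB 1 to 4, against 19770.0, 11596, 16302 and 23408 CPM in WT SHAM 1 to 4. The groups overlapped, and the log2 fold change was 0.01 (SE 0.24, adjusted p 0.991). WT PAB 1 had the most Myh7 and the least Myh6 of the banded libraries, and WT SHAM 2 had the least Myh6 of all. Mybpc2, the fast skeletal myosin-binding protein C, had 12.3, 4.14, 4.82 and 4.28 CPM in WT PAB 1 to 4, against 1.24, 3.34, 4.33 and 2.67 CPM in WT SHAM 1 to 4. Only WT PAB 1 stood clearly above the sham libraries (1.13, SE 0.47, adjusted p 0.391).

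The natriuretic peptide genes Nppa and Nppb lie close together on rat chromosome 5. The Nppa window (chr5:163711934-163712183, plus strand) held a TATA box 39 bases before the start. The Nppb window (chr5:163699758-163700007, plus strand) held a GATA site 110 bases before the start. It also held an MCAT motif and a match to the TATA box letters, 131 and 208 bases before the start. Both of these were read on the other strand.
Nppa: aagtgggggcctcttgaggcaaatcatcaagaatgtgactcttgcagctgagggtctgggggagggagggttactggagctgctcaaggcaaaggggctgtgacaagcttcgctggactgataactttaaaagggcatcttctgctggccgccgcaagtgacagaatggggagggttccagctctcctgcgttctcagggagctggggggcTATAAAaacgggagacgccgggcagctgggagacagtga
Nppb: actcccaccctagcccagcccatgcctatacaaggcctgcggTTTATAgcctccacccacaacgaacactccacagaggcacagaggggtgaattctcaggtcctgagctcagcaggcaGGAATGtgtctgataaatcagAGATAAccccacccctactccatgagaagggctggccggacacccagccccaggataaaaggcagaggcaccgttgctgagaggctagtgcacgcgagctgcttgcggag

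Nppa, which encodes atrial natriuretic peptide, had 462, 42.3, 38.0 and 85.0 CPM in WT PAB 1 to 4, against 2.17, 10.1, 14.2 and 14.6 CPM in WT SHAM 1 to 4. The groups did not overlap, and WT PAB 1 was far above the other banded libraries. The log2 fold change was 3.93 (SE 0.87, adjusted p 0.197; DESeq2 adjusted p 0.000918). It was 4.21 without WT SHAM 2 and 3, and 2.71 with WT PAB 1 also left out. Nppb, which encodes B-type natriuretic peptide, had 228, 67.3, 45.9 and 115 CPM in WT PAB 1 to 4, against 28.1, 9.78, 10.9 and 92.4 CPM in WT SHAM 1 to 4. WT SHAM 4 lay within the banded range, so that the groups overlapped, and the log2 fold change of 1.70 (SE 0.72, adjusted p 0.4) became 0.92 without WT SHAM 2 and 3. It was 2.82 (adjusted p 0.139) without WT SHAM 4 and 1.11 (adjusted p 0.75) without WT PAB 1.

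Npr3, the receptor that clears natriuretic peptides, had 31.5, 19.1, 13.3 and 14.6 CPM in WT PAB 1 to 4, against 9.63, 13.6, 13.7 and 9.00 CPM in WT SHAM 1 to 4 (0.77, SE 0.31, adjusted p 0.38). Of the 9 tested genes of the natriuretic peptide system, these 3 were higher and none lower at an unadjusted p below 0.05 (5.45% of all genes were higher), the groups overlapped in Nppb and Npr3, and the median was -0.03. Pam, which amidates peptide hormones in secretory granules and is abundant in atrial muscle, had 2071, 1327, 1223 and 1197 CPM in WT PAB 1 to 4, against 1047, 1061, 1003 and 788 CPM in WT SHAM 1 to 4. Its groups did not overlap (0.58, SE 0.17, adjusted p 0.287).

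**Figure D2:**
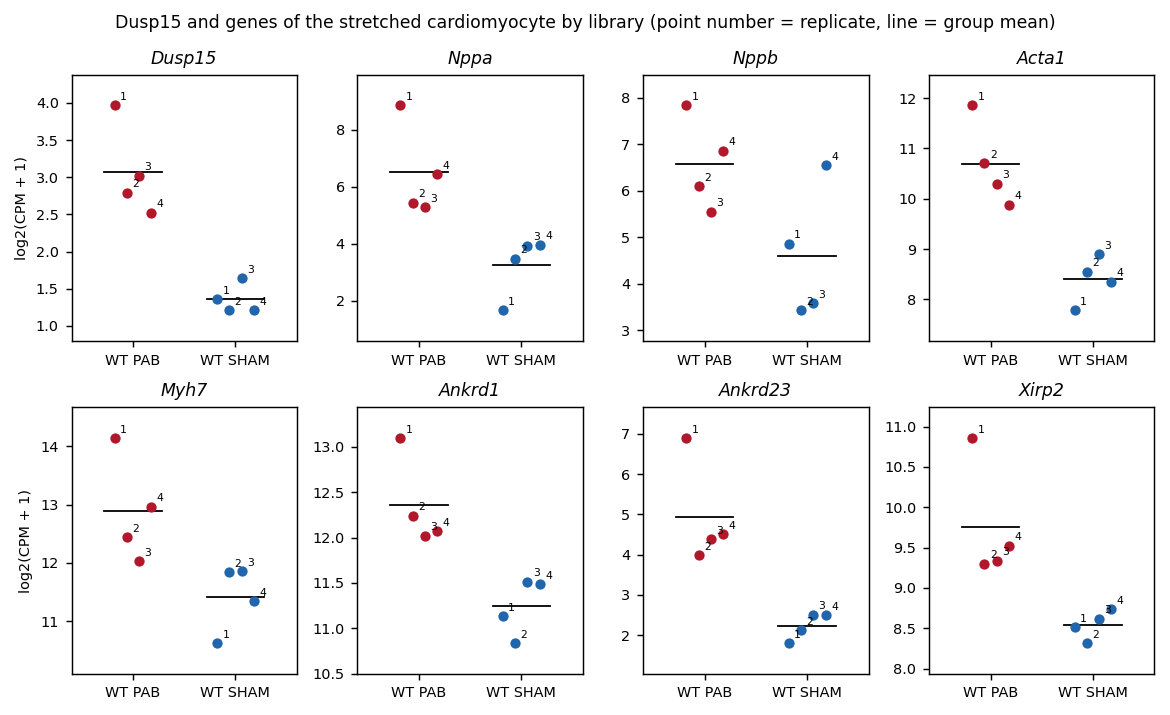
Levels, as log2(CPM + 1), of Dusp15 and of 7 load-responsive cardiomyocyte genes in each WT PAB (left, red) and WT SHAM (right, blue) library; numbers are replicates and bars are group means. WT PAB 1 is the highest point of every panel, and Nppb is the 1 panel in which a sham library (WT SHAM 4, 92.4 CPM) reaches the banded range.

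Of the 25 pathway lists, that of Z-disc, titin and stretch proteins had the most higher members. Of 22 tested genes, 11 were higher and none lower at an unadjusted p below 0.05, against 5.45% of all genes, and in 10 the groups did not overlap, against 2.60%. The median log2 fold change was 0.37, and 0.27 without WT SHAM 2 and 3. It was 0.16 with WT PAB 1 also left out. Without WT SHAM 2 and 3, 8 were higher and none lower at an unadjusted p below 0.05 (3.23% and 2.42% of all genes). Cardiomyocyte markers as a whole had a median of 0.27 with all 8 libraries and 0.01 without WT SHAM 2 and 3. How far the share of cardiomyocyte RNA enters the Z-disc result was not tested. WT PAB 1 was the highest of the 8 libraries in 16 of the 22 genes, against 17.0% of all genes.

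Ankrd23, a titin-associated ankyrin protein gene, had 118, 14.8, 19.9 and 21.7 CPM in WT PAB 1 to 4, against 2.49, 3.34, 4.69 and 4.60 CPM in WT SHAM 1 to 4. Every banded library was above every sham library (3.52, SE 0.71, adjusted p 0.179). Its promoter window (chr9:46274511-46274760, minus strand) held an MCAT motif 102 bases before the start.
Ankrd23: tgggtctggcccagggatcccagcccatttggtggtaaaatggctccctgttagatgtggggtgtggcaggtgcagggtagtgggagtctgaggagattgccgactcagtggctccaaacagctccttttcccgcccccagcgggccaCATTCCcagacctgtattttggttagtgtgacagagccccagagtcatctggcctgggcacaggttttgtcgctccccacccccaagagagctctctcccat

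Ankrd1, the related cardiac ankyrin repeat protein gene, had 8759, 4831, 4151 and 4299 CPM in WT PAB 1 to 4, against 2239.8, 1828, 2917 and 2867 CPM in WT SHAM 1 to 4 (1.16, SE 0.23, adjusted p 0.179; DESeq2 adjusted p 0.000334). Xirp2, an actin-binding protein of the intercalated disc, had 1855, 629.9, 645 and 735 CPM in WT PAB 1 to 4, against 364, 318, 392 and 426 CPM in WT SHAM 1 to 4 (1.37, SE 0.33, adjusted p 0.221). Csrp3, the muscle LIM protein gene, had 613 to 1116 CPM in WT PAB, against 277 to 485 CPM in WT SHAM (0.94, SE 0.22, adjusted p 0.202). In each of these 3 genes WT PAB 2, 3 and 4 lay close together and WT PAB 1 far above them.

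4 further Z-disc genes were named after their values were seen. Myot, the gene of myotilin, had 10.1, 3.04, 5.21 and 5.32 CPM in WT PAB 1 to 4, against 2.81, 0.790, 1.68 and 1.64 CPM in WT SHAM 1 to 4 (1.79, SE 0.47, adjusted p 0.247). Nrap, which links actin filaments to the cell junction, had 423 to 916 CPM in WT PAB, against 232 to 414 CPM in WT SHAM (0.89, SE 0.23). Flnc, filamin C, had 395 to 930.1 CPM in WT PAB, against 206 to 352 CPM in WT SHAM (0.93, SE 0.25). Pdlim5 had 55.3 to 80.6 CPM in WT PAB, against 42.8 to 51.1 CPM in WT SHAM (0.52, SE 0.17), and here WT PAB 4 was the highest library. The small heat shock protein gene Hspb7, which binds filamin C, had 2318, 1406, 1525 and 1395 CPM in WT PAB 1 to 4, against 1338, 700.0, 1063 and 1330.0 CPM in WT SHAM 1 to 4 (0.58, SE 0.21, adjusted p 0.364). Tcap, the gene of telethonin, had at most 1 count in each library and was not tested. The annotation used for counting is not given, so this count may not reflect the level of its transcript.

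Of the 15 higher genes with the smallest p and no overlap between the groups, 12 had a RefSeq promoter entry. MCAT was found in 4 of these 12 windows, the TATA box in 2, the CArG box in 1 and the GATA site in 1. With 12 windows these counts are a description only.

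Of 26 genes of hypertrophy signalling, 6 were higher and 1 lower at an unadjusted p below 0.05, against 5.45% and 6.26% of all genes, with a median of 0.06. With WT SHAM 2 and 3 left out, 4 were higher and 3 lower, against 3.23% and 2.42%. Rcan1, a calcineurin inhibitor that calcineurin itself induces, had 961, 641, 584 and 659 CPM in WT PAB 1 to 4, against 451, 249.9, 323 and 309 CPM in WT SHAM 1 to 4 (1.09, SE 0.25, adjusted p 0.197). Gata4, a cardiac transcription factor gene, had 136, 103, 107 and 119 CPM in WT PAB 1 to 4, against 97.0, 90.7, 84.7 and 94.4 CPM in WT SHAM 1 to 4 (0.34, SE 0.09, adjusted p 0.268). Both genes separated the groups, Rcan1 by a wide margin and Gata4 by a narrow one.

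Myocd, a coactivator of serum response factor in cardiac and smooth muscle, had 41.9 to 57.8 CPM in WT PAB, against 32.2 to 37.6 CPM in WT SHAM (0.48, SE 0.14, adjusted p 0.304). WT SHAM 2 and 3, in which Myh11 and Tagln were high, had 32.2 and 33.7 CPM of it. Akip1, a binding partner of protein kinase A, had 16.7, 4.68, 2.49 and 3.08 CPM in WT PAB 1 to 4, against 0.968, 1.93, 1.61 and 1.11 CPM in WT SHAM 1 to 4 (2.24, SE 0.56, adjusted p 0.23). Tead1, a TEAD factor that binds MCAT, had 40.4 to 54.8 CPM in WT PAB, against 32.2 to 43.3 CPM in WT SHAM, where WT SHAM 3 overlapped (0.43, SE 0.16, adjusted p 0.372). Tead4 had 9.80, 9.85, 9.93 and 10.1 CPM in WT PAB 1 to 4, against 7.24, 7.20, 6.09 and 8.96 CPM in WT SHAM 1 to 4 (0.43, SE 0.18, adjusted p 0.392). Tead4 was one of the genes in which WT PAB 1 did not differ from the other banded libraries.

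Insr, the insulin receptor gene, had 98.5, 93.9, 88.2 and 96.4 CPM in WT PAB 1 to 4, against 76.9, 67.8, 77.9 and 83.9 CPM in WT SHAM 1 to 4 (0.30, SE 0.09, adjusted p 0.287). Pik3r1, a regulatory subunit of PI3 kinase, had 52.5 to 57.4 CPM in WT PAB, against 58.9 to 74.6 CPM in WT SHAM (-0.30, SE 0.10, adjusted p 0.363). These small differences separated the groups. Of 36 tested genes of growth factor and PI3 kinase signalling, 1 was higher and 2 were lower at an unadjusted p below 0.05, near or under the 5.45% and 6.26% of all genes, with a median of -0.07.

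Outside these lists, the gene with the smallest p after Dusp15 was Lrrc2, which encodes a leucine-rich repeat protein. Lrrc2 had 203, 128, 165 and 134 CPM in WT PAB 1 to 4, against 82.9, 70.8, 77.9 and 100.4 CPM in WT SHAM 1 to 4 (0.92, SE 0.15, adjusted p 0.168; DESeq2 adjusted p 2.31e-05). Penk, the precursor of the enkephalin opioid peptides, had 315, 88.0, 199 and 95.5 CPM in WT PAB 1 to 4, against 20.3, 19.5, 24.0 and 32.6 CPM in WT SHAM 1 to 4 (2.86, SE 0.50, adjusted p 0.179; DESeq2 adjusted p 4.65e-07). In Penk all banded libraries lay well above all sham libraries.

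Efcab6, a calcium-binding protein gene, had 34.5, 11.0, 19.5 and 7.90 CPM in WT PAB 1 to 4, against 4.70, 0.820, 1.83 and 2.63 CPM in WT SHAM 1 to 4 (2.90, SE 0.53, adjusted p 0.179). Tceal7, a gene of the elongation factor A-like family, had 19.1, 3.33, 4.92 and 7.67 CPM in WT PAB 1 to 4, against 0.461, 1.02, 1.75 and 1.44 CPM in WT SHAM 1 to 4 (2.88, SE 0.62, adjusted p 0.197). Vash2, a vasohibin that removes the end residue of tubulin, had 11.7 to 29.7 CPM in WT PAB, against 2.07 to 6.38 CPM in WT SHAM (1.82, SE 0.39, adjusted p 0.183). Clic5, a chloride intracellular channel gene, had 507, 392, 390.0 and 392 CPM in WT PAB 1 to 4, against 282, 202, 249 and 267 CPM in WT SHAM 1 to 4 (0.75, SE 0.15, adjusted p 0.179). The 3 banded libraries other than WT PAB 1 were nearly equal in Clic5.

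The remaining higher genes of this kind were smaller or lower in level. Fbxl2, an F-box ubiquitin ligase subunit, had 1.74 to 5.07 CPM in WT PAB, against 0.645 to 1.18 CPM in WT SHAM (1.59, SE 0.30). Hspa1l, of the Hsp70 family, had 8.53 to 20.1 CPM in WT PAB, against 4.36 to 7.37 CPM in WT SHAM (1.18, SE 0.24). Rrp12, which serves the making of ribosomes, had 9.02 to 19.7 CPM in WT PAB, against 6.00 to 7.82 CPM in WT SHAM (0.93, SE 0.20). Ikbkb, the kinase that releases NF-kappaB, had 28.4 to 40.3 CPM in WT PAB, against 19.0 to 25.8 CPM in WT SHAM (0.53, SE 0.12). The adjusted p of these 4 genes was 0.179 to 0.197, and none overlapped between the groups. Fbxl2, Hspa1l and Rrp12 were chosen for that lack of overlap, and Ikbkb for lacking it without WT SHAM 2 and 3.

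Several genes were lower without overlap, most of them by small folds. Patj, a scaffold of cell junctions, had 16.5, 17.7, 18.8 and 19.7 CPM in WT PAB 1 to 4, against 24.1, 22.7, 24.5 and 24.5 CPM in WT SHAM 1 to 4 (-0.40, SE 0.07, adjusted p 0.179; DESeq2 adjusted p 0.000534). Acer3, an alkaline ceramidase gene, had 7.99 to 11.1 CPM in WT PAB, against 12.8 to 15.0 CPM in WT SHAM (-0.53, SE 0.11, adjusted p 0.179). Enpp5 had 10.0 to 13.8 CPM in WT PAB, against 16.4 to 18.3 CPM in WT SHAM (-0.52, SE 0.11, adjusted p 0.181). In these 3 genes WT SHAM 2 and 3 were close to the other sham libraries.

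B3galnt1, a glycosyltransferase of globoside synthesis, had 6.50 to 8.11 CPM in WT PAB, against 9.50 to 12.9 CPM in WT SHAM (-0.57, SE 0.12, adjusted p 0.183). Plxnb2, a semaphorin receptor, had 38.0 to 62.3 CPM in WT PAB, against 69.1 to 93.8 CPM in WT SHAM (-0.70, SE 0.16, adjusted p 0.197). Sbf2, of the myotubularin family, had 33.2, 38.2, 37.7 and 38.4 CPM in WT PAB 1 to 4, against 43.8, 48.6, 44.4 and 45.6 CPM in WT SHAM 1 to 4 (-0.31, SE 0.07, adjusted p 0.201). WT SHAM 2 was the highest library in all 3 genes.

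Myo16, an unconventional myosin, had 0.346, 0.840, 0.766 and 0.964 CPM in WT PAB 1 to 4, against 3.55, 1.29, 3.76 and 3.86 CPM in WT SHAM 1 to 4 (-2.08, SE 0.53, adjusted p 0.23). Here WT SHAM 2 was the sham library nearest to the banded ones, and without WT SHAM 2 and 3 the value was -2.33. Irs3, an insulin receptor substrate of rodent fat cells, had 0.424 to 0.735 CPM in WT PAB, against 0.968, 2.66, 1.50 and 1.27 CPM in WT SHAM 1 to 4 (-1.42, SE 0.33, adjusted p 0.197). Its highest values were in WT SHAM 2 and 3, and the difference was -0.89 without them.

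In 2 sodium channel genes the banded libraries lay below the sham libraries without passing the adjusted test. Scn4b, a beta subunit of cardiac sodium channels, had 85.9, 156, 119 and 79.4 CPM in WT PAB 1 to 4, against 197, 158, 186 and 179 CPM in WT SHAM 1 to 4 (-0.71, SE 0.19, adjusted p 0.272). Its groups were separated by a narrow gap between WT PAB 2 and WT SHAM 2. Scn7a, a sodium-sensing channel also used here as a Schwann cell marker, had 10.7, 16.3, 17.7 and 19.3 CPM in WT PAB 1 to 4, against 24.5, 23.5, 20.5 and 26.0 CPM in WT SHAM 1 to 4 (-0.56, SE 0.21, adjusted p 0.368). Hcn2, a pacemaker channel gene, had 124, 88.8, 90.3 and 45.7 CPM in WT PAB 1 to 4, against 43.3, 35.4, 57.5 and 69.5 CPM in WT SHAM 1 to 4, with WT PAB 4 inside the sham range (0.76, SE 0.25, adjusted p 0.363). Of 23 tested potassium, sodium and pacemaker channel genes, 3 were higher and 2 lower at an unadjusted p below 0.05, against 5.45% and 6.26% of all genes. Without WT SHAM 2 and 3, 1 was higher and 4 lower (3.23% and 2.42% of all genes), and the median of 0.07 became -0.14. Set against WT SHAM 1 and 4, 1 lay above and 7 below without overlap (8.11% and 9.11% of all genes).

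3 further genes were named as lower in the fit without WT SHAM 2 and 3. Strbp, an RNA-binding protein gene, had 9.11 to 11.1 CPM in WT PAB, against 11.6 to 15.3 CPM in WT SHAM, and its log2 fold change was -0.35 with all libraries and -0.47 without the 2. Nckap5 had 3.92 to 4.23 CPM in WT PAB, against 4.27 to 6.91 CPM in WT SHAM, with differences of -0.38 and -0.61. Bcl2l11, which encodes the pro-apoptotic protein Bim, had 15.4, 10.7, 11.5 and 12.0 CPM in WT PAB 1 to 4, against 26.6, 11.6, 23.2 and 18.3 CPM in WT SHAM 1 to 4, with differences of -0.68 and -0.85. WT SHAM 2 was the only sham library within the banded range of Bcl2l11.

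The direction of the matrix genes depended on the sham libraries. Of 31 matricellular and elastic matrix genes, none was higher and 8 were lower at an unadjusted p below 0.05 (5.45% and 6.26% of all genes), with a median of -0.76 and no gene without overlap. Without WT SHAM 2 and 3, 2 were higher and none lower (3.23% and 2.42% of all genes), and the median was 0.57. Of 21 collagen chains 2 were higher and 3 lower with all libraries, against the same 5.45% and 6.26%, and the median of -0.45 became 0.15. The summed level of the matricellular list was 1461 to 2027 CPM in WT PAB, against 1613, 6397, 3114 and 1335 CPM in WT SHAM 1 to 4. The direction of the lists was thus opposite in both sets of libraries. Fibroblast markers summed to 1693 to 2485 CPM in WT PAB, against 2205, 4564, 3088 and 1836 CPM in WT SHAM 1 to 4. Smooth muscle and pericyte markers summed to 2262 to 2926 CPM in WT PAB, against 2073, 5043, 2757 and 2666 CPM in WT SHAM 1 to 4. That sum was above the banded range in WT SHAM 2 only. The mesothelial sum, given above, was highest in WT SHAM 2 and 3. The part of these cell types in the result was not tested.

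Lox, the cross-linking enzyme of collagen and elastin, had 7.46, 10.8, 5.97 and 6.75 CPM in WT PAB 1 to 4, against 5.48, 83.3, 30.2 and 8.55 CPM in WT SHAM 1 to 4. The banded libraries lay between WT SHAM 1 and the 2 high sham libraries, and the log2 fold change of -2.05 (SE 0.72, adjusted p 0.364) became 0.14 without them. Fbln5, an elastic fibre protein, had 14.8 to 26.4 CPM in WT PAB, against 13.5, 186, 63.8 and 14.6 CPM in WT SHAM 1 to 4 (-1.90 with all, 0.41 without). Postn, periostin, had 12.3, 15.1, 7.31 and 5.78 CPM in WT PAB 1 to 4, against 5.85, 73.2, 23.7 and 5.51 CPM in WT SHAM 1 to 4 (-1.43 and 0.84). Spp1, osteopontin, had 3.70 to 12.9 CPM in WT PAB, against 3.36, 109, 35.2 and 4.85 CPM in WT SHAM 1 to 4 (-2.10 and 1.12). In all 4 genes WT SHAM 1 and 4 were below the highest banded library.

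Col1a1, the main fibrillar collagen chain, had 99.0, 166, 82.1 and 65.2 CPM in WT PAB 1 to 4, against 55.5, 288, 173 and 109 CPM in WT SHAM 1 to 4 (-0.60, SE 0.61, adjusted p 0.712). Col3a1 had 288 to 592 CPM in WT PAB, against 255, 1292, 816 and 419 CPM in WT SHAM 1 to 4 (-0.73, SE 0.54, adjusted p 0.6). Leaving out WT SHAM 2 and 3, the differences were 0.33 and 0.32. Dcn, decorin, had 381 to 484 CPM in WT PAB, against 536, 1299, 783 and 372 CPM in WT SHAM 1 to 4 (-0.76 and -0.04), and Timp1, a protease inhibitor gene, had 3.20 to 7.65 CPM in WT PAB, against 2.67 to 10.2 CPM in WT SHAM (-0.46 and 0.44).

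Of the 5 tested chains of type IV collagen, the collagen of basement membranes, 2 kept their direction without WT SHAM 2 and 3 and 3 did not. Col4a1 had 357, 377, 324 and 290.3 CPM in WT PAB 1 to 4, against 238, 272, 265 and 296 CPM in WT SHAM 1 to 4, with WT PAB 4 just inside the sham range (0.33, SE 0.11, adjusted p 0.363; 0.34 without WT SHAM 2 and 3). Col4a2, which shares its promoter region with Col4a1, had 145 to 202 CPM in WT PAB, against 117 to 155 CPM in WT SHAM (0.32, SE 0.13, adjusted p 0.385; 0.30 without the 2). Col4a5 had 54.4, 70.3, 53.6 and 54.9 CPM in WT PAB 1 to 4, against 55.4, 304.2, 123 and 56.2 CPM in WT SHAM 1 to 4. Its values in WT SHAM 1 and 4 lay within the banded range, and the difference was -1.21 (SE 0.49, adjusted p 0.384) with all libraries and 0.07 without WT SHAM 2 and 3. Col4a3 (-0.21 and 0.17) and Col4a4 (-0.44 and 0.03), named after their values were seen, also changed sign.

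Among 31 genes of TGF-beta and BMP signalling, 1 was higher and 3 lower at an unadjusted p below 0.05 (5.45% and 6.26% of all genes), with a median of -0.11. When WT SHAM 2 and 3 were left out, 4 were higher and 1 lower (3.23% and 2.42% of all genes), with a median of 0.17. The gene higher with all libraries was the ligand Tgfb2, with 89.2, 39.2, 16.4 and 20.9 CPM in WT PAB 1 to 4, against 6.54, 22.3, 20.2 and 8.96 CPM in WT SHAM 1 to 4. WT PAB 3 and 4 lay inside the sham range, and the log2 fold change was 1.50 (SE 0.56, adjusted p 0.369) with all libraries and 2.41 without WT SHAM 2 and 3. Tgfbr3, the co-receptor betaglycan, had 48.7 to 62.2 CPM in WT PAB, against 63.4 to 90.1 CPM in WT SHAM (-0.45, SE 0.12, adjusted p 0.272). Tgfbi, a matrix protein gene named for its induction by TGF-beta, had 24.0, 28.5, 25.9 and 25.2 CPM in WT PAB 1 to 4, against 35.9, 49.2, 40.9 and 32.4 CPM in WT SHAM 1 to 4 (-0.61, SE 0.13, adjusted p 0.183; -0.40 without WT SHAM 2 and 3). Gdf15, a stress-induced member of the same family that was not tested and was named after its values were seen, had 32, 10, 3 and 6 counts in WT PAB 1 to 4, against 1, 0, 2 and 2 counts in WT SHAM 1 to 4.

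**Figure D3:**
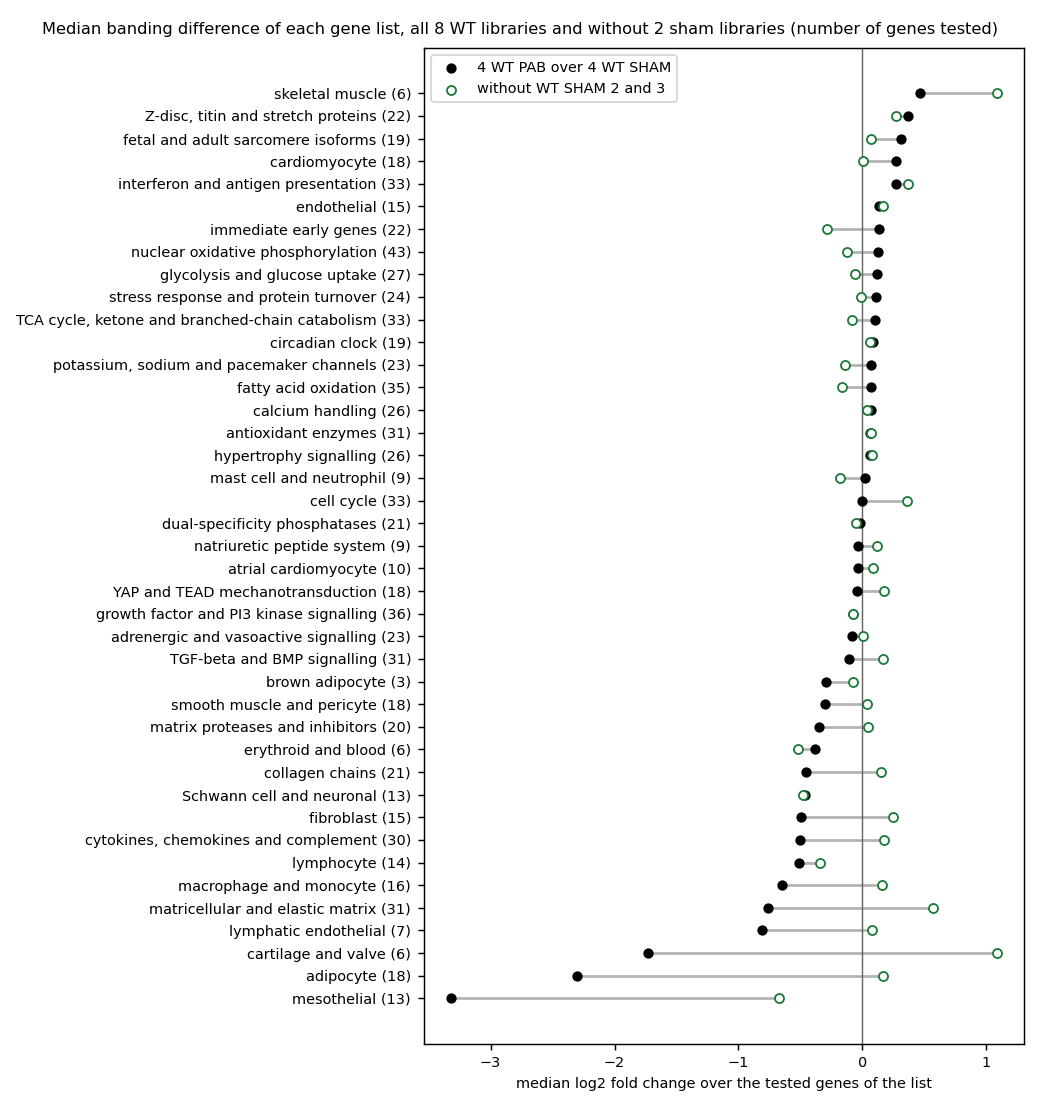
Median log2 fold change of WT PAB over WT SHAM for each of 41 gene lists (number of tested genes in parentheses), with all 8 libraries (filled) and without WT SHAM 2 and 3 (open). The largest shifts are those of the adipocyte (-2.30 and 0.17), cartilage and valve (-1.73 and 1.09) and mesothelial (-3.32 and -0.67) markers, while the Z-disc list is at 0.37 and 0.27. WT SHAM 2 and 3 were set apart for their adipocyte and mesothelial transcripts, so the shifts of those lists follow from that choice.

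The marker lists of several other cell types showed the same dependence, and their counts stand against 5.45% higher and 6.26% lower over all genes. For adipocyte and mesothelial markers it follows from the choice of the libraries left out, which were set apart for those transcripts. Of 18 adipocyte markers 13 were lower and none higher at an unadjusted p below 0.05, with a median of -2.30 that became 0.17 without WT SHAM 2 and 3. Fasn, fatty acid synthase, had 6.84 to 8.85 CPM in WT PAB, against 8.53, 54.9, 134 and 6.29 CPM in WT SHAM 1 to 4 (-2.68, SE 0.75, adjusted p 0.287). Of 13 mesothelial markers 10 were lower, with medians of -3.32 and -0.67. Gpm6a, a membrane glycoprotein on that list, was the 1 member without overlap, with 7.19, 11.6, 11.4 and 12.4 CPM in WT PAB 1 to 4, against 16.3, 34.8, 22.6 and 13.7 CPM in WT SHAM 1 to 4 (-1.04, SE 0.27, adjusted p 0.233). Its difference was -0.49 without WT SHAM 2 and 3.

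Of 18 smooth muscle and pericyte markers 7 were lower and 1, Myocd, higher, with medians of -0.30 and 0.04. Fibroblast markers had 3 of 15 lower (-0.49 and 0.25), and macrophage and monocyte markers 1 of 16 (-0.65 and 0.16). Endothelial markers, 15 genes, had none on either side and a median of 0.14, and 0.17 without the 2 sham libraries. Of 14 tested lymphocyte markers none passed an unadjusted p of 0.05. Cd2, a T cell surface protein gene, had 0.231, 0.711, 0.830 and 0.540 CPM in WT PAB 1 to 4, against 0.922, 1.52, 0.860 and 0.987 CPM in WT SHAM 1 to 4 (-0.88, SE 0.44, adjusted p 0.455). Il33, an alarmin of stromal cells, had 7.92 to 9.89 CPM in WT PAB, against 9.96, 25.9, 12.8 and 9.99 CPM in WT SHAM 1 to 4, and its difference of -0.73 was -0.17 without WT SHAM 2 and 3.

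Calcium handling and energy genes of the cardiomyocyte differed little. Ryr2, the calcium release channel, had 1605 to 1733 CPM in WT PAB, against 1504, 946, 1339 and 1584 CPM in WT SHAM 1 to 4 (0.32, SE 0.15, adjusted p 0.423; 0.13 without WT SHAM 2 and 3). Atp2a2, the calcium pump of the sarcoplasmic reticulum, had 8707, 10182, 10408 and 10797 CPM in WT PAB 1 to 4, against 11934, 6782, 9849.7 and 11234 CPM in WT SHAM 1 to 4 (0.01, SE 0.17, adjusted p 0.987; -0.21 without the 2). Of 26 calcium handling genes 3 were higher and none lower at an unadjusted p below 0.05 (5.45% and 6.26% of all genes). Without WT SHAM 2 and 3 none was on either side (3.23% and 2.42% of all genes). Cacna1g, a T-type calcium channel of the fetal ventricle, had 26.5, 8.82, 5.08 and 7.02 CPM in WT PAB 1 to 4, against 2.12, 8.87, 7.09 and 5.51 CPM in WT SHAM 1 to 4, so that WT PAB 1 alone was above the sham range (0.99, SE 0.59, adjusted p 0.521).

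The 43 nuclear genes of oxidative phosphorylation had none past an unadjusted p of 0.05 (11.7% of all genes) and a median of 0.13. Without WT SHAM 2 and 3 the median was -0.12, and in 12 of the 43 every banded library lay below WT SHAM 1 and 4, against 9.11% of all genes (8.11% lay above). Fatty acid oxidation, 35 genes, had 2 higher and none lower (5.45% and 6.26% of all genes) with a median of 0.07. Without the 2 libraries it had none higher, 2 lower (3.23% and 2.42% of all genes) and a median of -0.16. In 11 of the 35 every banded library lay below WT SHAM 1 and 4 (9.11% of all genes), and in none above (8.11%). Cpt1b, which brings fatty acids into mitochondria, had 621 to 694 CPM in WT PAB, against 585, 395, 529 and 630.0 CPM in WT SHAM 1 to 4 (0.30, SE 0.13; 0.12 without). The sign of both medians thus turned with the sham libraries.

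Among genes of ketone and glucose use, Bdh1 separated the groups while Oxct1, Hk1 and Ldhb overlapped, and none passed the adjusted test. Bdh1, the mitochondrial beta-hydroxybutyrate dehydrogenase, had 82.1, 52.6, 73.5 and 51.9 CPM in WT PAB 1 to 4, against 43.5, 30.8, 33.0 and 45.2 CPM in WT SHAM 1 to 4, without overlap (0.77, SE 0.16, adjusted p 0.179; 0.55 without WT SHAM 2 and 3). Oxct1, the next enzyme of ketone use, had 2512 to 3318 CPM in WT PAB, against 1681 to 2588 CPM in WT SHAM (0.40, SE 0.15; 0.20 without). Hk1, a hexokinase, had 152, 127, 99.6 and 117 CPM in WT PAB 1 to 4, against 101, 81.7, 100.4 and 97.8 CPM in WT SHAM 1 to 4 (0.38, SE 0.12, adjusted p 0.352; 0.33 without). Ldhb, lactate dehydrogenase B, had 2644 to 3547 CPM in WT PAB, against 1775 to 2975 CPM in WT SHAM (0.38, SE 0.17; 0.17 without). Of 27 genes of glycolysis and glucose uptake 6 were higher and 1 lower at an unadjusted p below 0.05 (5.45% and 6.26% of all genes), with a median of 0.12. In the fit without WT SHAM 2 and 3, 1 was higher and none lower (3.23% and 2.42% of all genes), and the median was -0.06. Of the 27, 6 lay below WT SHAM 1 and 4 without overlap (9.11% of all genes) and none above (8.11%).

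Interferon-induced genes were high in some banded libraries only. Mx1, an antiviral GTPase, had 3.54, 12.0, 24.0 and 6.83 CPM in WT PAB 1 to 4, against 3.46, 7.41, 3.44 and 4.11 CPM in WT SHAM 1 to 4 (1.32, SE 0.52, adjusted p 0.38). Mx2 had 11.0, 29.9, 45.3 and 21.9 CPM in WT PAB 1 to 4, against 8.20, 16.6, 7.59 and 13.4 CPM in WT SHAM 1 to 4 (1.24, SE 0.40, adjusted p 0.363). Isg15, a ubiquitin-like protein gene, had 3.84, 5.17, 9.29 and 5.48 CPM in WT PAB 1 to 4, against 2.95, 3.92, 3.01 and 4.23 CPM in WT SHAM 1 to 4 (0.75, SE 0.26, adjusted p 0.363). WT PAB 3 was the highest library in all 3 genes, and WT PAB 1 lay in the sham range. Of 33 interferon and antigen presentation genes 4 were higher and none lower at an unadjusted p below 0.05 (5.45% of all genes were higher), and 2 were higher without WT SHAM 2 and 3 (3.23%), with medians of 0.27 and 0.37. WT PAB 1 was the lowest of the 8 libraries in 10 of the 33, against 16.5% of all genes.

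Cell cycle genes had 1 of 33 higher and 1 lower (5.45% and 6.26% of all genes) with a median of -0.00. In the fit without WT SHAM 2 and 3, they had 6 higher and 1 lower (3.23% and 2.42% of all genes) with a median of 0.36. Ccnd2, cyclin D2, had 126, 55.4, 70.8 and 86.3 CPM in WT PAB 1 to 4, against 47.1, 40.2, 38.1 and 73.6 CPM in WT SHAM 1 to 4 (0.77, SE 0.28, adjusted p 0.368). Cry2, a repressor of the circadian clock, had 61.7, 41.5, 42.4 and 28.8 CPM in WT PAB 1 to 4, against 25.5, 33.9, 37.1 and 26.9 CPM in WT SHAM 1 to 4 (0.50, SE 0.21, adjusted p 0.397). WT SHAM 4 of Ccnd2 and WT PAB 4 of Cry2 lay inside the range of the other group.

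WT PAB 1 differed from the other banded libraries in the size of many of these values. Of the 350 genes in which all banded libraries lay above all sham libraries, WT PAB 1 was the highest in 222 (63.4%), WT PAB 2 in 35, WT PAB 3 in 38 and WT PAB 4 in 55. Of the 313 in which they lay below, it was the lowest in 161 (51.4%), and each of the other 3 in 48 to 55. On the log2(CPM + 1) scale, Nppa in WT PAB 1 was 5.60 above the mean of the sham libraries, and 2.18, 2.03 and 3.17 above it in WT PAB 2, 3 and 4. Acta1 was 3.46 above that mean in WT PAB 1, and 2.31, 1.91 and 1.48 in the others. Dusp15 was 2.61 above it in WT PAB 1, and 1.43, 1.67 and 1.17 in the others. Each of the 4 banded libraries was thus above the sham mean in these 3 genes.

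3 further genes were named because WT PAB 1 lay outside the range of the other 7 libraries, so that its distance is a description. Ncam1, a neural adhesion molecule also found on stressed cardiomyocytes, had 59.3, 17.3, 14.1 and 11.1 CPM in WT PAB 1 to 4, against 2.58, 18.2, 11.5 and 5.34 CPM in WT SHAM 1 to 4. Cyp2e1, a cytochrome P450 gene, had 1.11, 7.14, 8.05 and 9.99 CPM in WT PAB 1 to 4, against 17.6, 15.1, 19.3 and 14.9 CPM in WT SHAM 1 to 4, so that all banded libraries were lower and WT PAB 1 far lower. Il1b, interleukin 1 beta, had 16.9, 2.36, 2.68 and 6.67 CPM in WT PAB 1 to 4, against 10.0, 1.05, 4.98 and 2.06 CPM in WT SHAM 1 to 4. Without WT PAB 1, 410 genes (3.05%) had all 3 banded libraries above all 4 sham libraries and 414 (3.08%) had all below, and at an unadjusted p below 0.05 there were 903 genes in place of 1575.

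**Figure D4:**
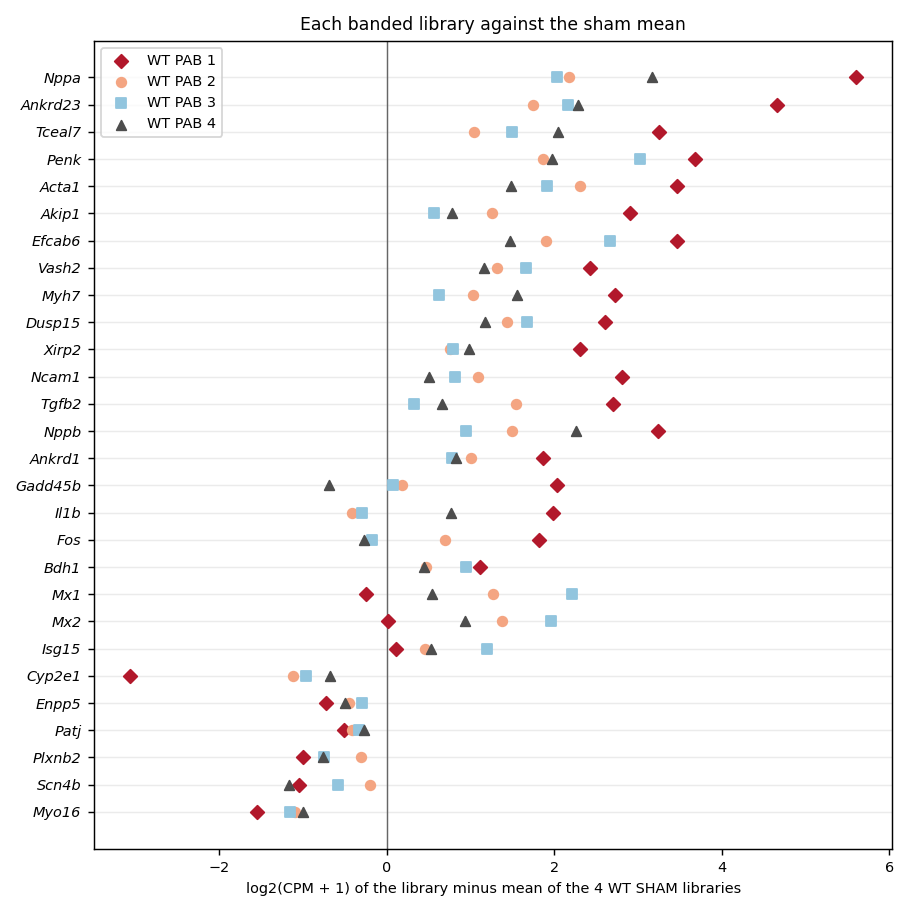
Level of 28 genes in each of the 4 WT PAB libraries as the difference in log2(CPM + 1) from the mean of the 4 WT SHAM libraries (line at 0). WT PAB 1 (red diamonds) is the farthest from 0 in Nppa (5.60), Ankrd23, Acta1 and Dusp15 (2.61), near 0 in Mx2 (0.01) and below the other banded libraries in Mx1 (-0.25).

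The response was set beside that of the KO rats, whose 8 libraries share none with it. In KO rats 85 genes passed the adjusted test (0.632%) and 2101 an unadjusted p below 0.05 (15.6%), 8.37% higher and 7.24% lower. The difference between the banding effects, KO minus WT, passed the adjusted edgeR test in 0 genes and an unadjusted p below 0.05 in 237 (1.76%), and DESeq2 and limma-voom also called 0. Of the 85 genes past the test in KO rats, all 85 differed in the same direction in WT. Over all genes, 65.6% of those higher and 70.9% of those lower in WT shared the direction in KO. In WT 79 of the 85 had an unadjusted p below 0.05, against 11.7% of all genes. For the difference of the effects 12 of the 85 had an unadjusted p below 0.05, against 1.76% of all genes. The KO values that chose these 85 genes also enter that difference. A call in 1 genotype and not in the other is therefore not read here as a difference between them.

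Of the 733 genes higher in WT at an unadjusted p below 0.05, 703 (95.9%) were also higher in KO, and 455 (62.1%) at an unadjusted p below 0.05. Of all genes with a higher mean effect in WT, 65.6% and 16.2% were so. Of the 842 lower genes, 768 (91.2%) were also lower in KO and 256 (30.4%) at an unadjusted p below 0.05, beside 70.9% and 12.5% of all genes with a lower effect. KO PAB 3 had 142 counts of Adipoq and 21 of Msln, and KO SHAM 4 had 404 counts of Adipoq and 1549 of Msln, so that both carried adipocyte transcripts. The other 6 KO libraries had at most 1 count of Adipoq. Without WT SHAM 2 and 3 and KO SHAM 4 the shares in the same direction were 93.7% of 568 higher and 93.5% of 446 lower genes. Of all genes with a higher or a lower effect in that fit, 70.8% and 71.5% shared the direction. In the same direction at an unadjusted p below 0.05 in KO were 67.6% and 66.4%, beside 21.3% of all genes on each side. Pearson's r between both effects across genes was 0.35 in that fit, against 0.54 with all libraries. Genes are not independent replicates, so r is a description.

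Single genes differed in size between the genotypes without passing the test of the difference. Nppa had a banding difference of 6.99 in KO and 3.93 in WT (KO minus WT 3.07, SE 1.14, unadjusted p 0.0175 and adjusted p 0.999 by edgeR). Pik3r1 had -0.69 in KO and -0.30 in WT (KO minus WT -0.39, unadjusted p 0.0125, adjusted p 0.999), and Npr3 had 1.70 and 0.77 (0.93, unadjusted p 0.0498, adjusted p 0.999). Penk, at 1.62 in KO and 2.86 in WT, and Efcab6, at 1.61 and 2.90, ran the other way (adjusted p 0.999 each). Ankrd23, at 3.49 and 3.52, and Lrrc2, at 1.00 and 0.92, were close in size.

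**Figure D5:**
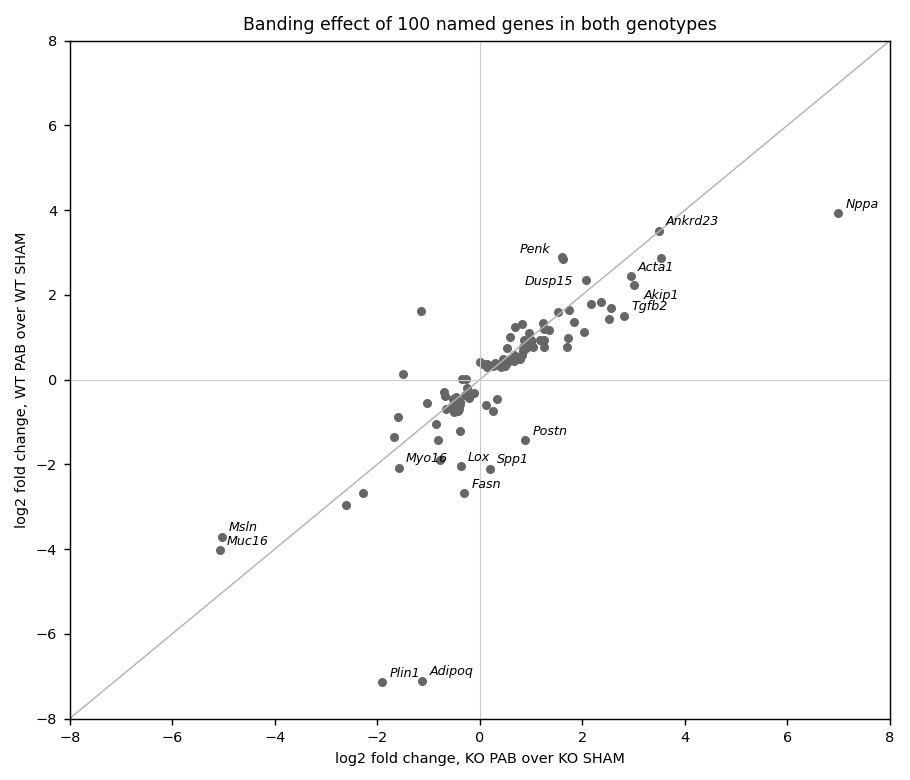
Banding effect of 100 named genes as log2 fold change of PAB over SHAM in KO (horizontal axis) and WT (vertical axis), with the line of equality. Ankrd23 lies on the line (3.49 and 3.52), Nppa to its right (6.99 and 3.93), and the adipocyte markers Adipoq and Plin1 far below it.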

How the data were processed

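Messenger RNA was sequenced from 10 mg pieces of rat right ventricle in 16 libraries, 4 in each of 4 groups. The deposited files hold expected counts per gene, which the authors made with STAR 2.5.3a, RSEM 1.3.0 and the Rnor_6.0 genome, per the submitters' processing notes. The values are whole numbers as deposited and were used as such. Which annotation and strand setting the counting used, and the handling of reads that match several genes are not given in the sources used here, so values of overlapping or near-identical genes are uncertain. Entries that repeat a gene symbol (274 symbols) were kept apart.

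Of 32754 entries per file, 13458 passed edgeR's filterByExpr with a minimum count of 10, and held at least 99.93% of the counts of each WT library. edgeR 4.0.16 in R 4.3.3 fitted 4 group means over all 16 libraries with TMM scaling and its robust quasi-likelihood test, so that all groups share 1 estimate of the spread. The tests were 2-sided and Benjamini-Hochberg values were taken over all tested genes, with a threshold of 0.05. The SE is the log2 fold change over the root of its F statistic. Levels are not divided by gene length, so they are compared between libraries and not between genes. The precision rests on 4 libraries per group and, in the WT libraries, on a depth of 22168110 to 32411398 counts. Which of these limits it more was not tested. Fitting code was tested on simulated data.

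The members, the 41 gene lists and the tests were chosen with earlier results of these data known. Named genes were those past the test, the 15 higher and 15 lower genes with the smallest p and no overlap at a mean of at least 1 CPM, the 10 of each direction without WT SHAM 2 and 3, up to 4 members of each list, the genes most extreme in WT PAB 1 at a mean of at least 5 CPM, and a fixed panel. Not all of them are described. Nrap, Myot, Flnc, Pdlim5, Dusp6, Dusp26, Col4a3, Col4a4, Ucp1 and Gdf15 were chosen after their values were seen. Alternatives were DESeq2 1.42.0, limma 3.58.1 (voom, with and without quality weights), DESeq2-type size factors in edgeR, no or a stricter filter, a replicate block, the 8 WT libraries alone, and libraries left out. The fit that also leaves out KO SHAM 4 was added after seeing the data.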

Additional observations from a re-analysis of the deposited data

Results flagged for a closer look

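Among 200 groups of 4 libraries, 20 held a value whose gap to the nearest of the others was past Dixon's critical value for its range, which chance gives in about 1 of 20 groups. WT PAB 1 was the library in 15 of them, WT SHAM 2 in 3, and WT PAB 2 and WT PAB 4 in 1 each. The genes include some named for being extreme in WT PAB 1, such as Nppa, Ankrd23, Gadd45b and Ncam1, and others chosen after their values were seen, such as Flnc. Neither the number of such values nor the share of WT PAB 1 among them can therefore be set against chance.

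Among stretch and load genes, WT PAB 1 had 462 CPM of Nppa (38.0 to 85.0 in the other banded libraries), 12.3 of Mybpc2 (4.14 to 4.82), 8759 of Ankrd1 (4151 to 4831) and 118 of Ankrd23 (14.8 to 21.7). It had 1855 CPM of Xirp2 (629.9 to 735), 1116 of Csrp3 (613 to 693), 930.1 of Flnc (395 to 444) and 2318 of Hspb7 (1395 to 1525). It also had 16.7 CPM of Akip1 (2.49 to 4.68), 507 of Clic5 (390.0 to 392), 40.3 of Ikbkb (28.4 to 30.3) and 2071 of Pam (1197 to 1327). Further values of WT PAB 1 were 66.1 CPM of the stress gene Gadd45b (9.18 to 17.7), 59.3 of Ncam1 (11.1 to 17.3) and, as the only low one, 33.2 of Sbf2 (37.7 to 38.4).

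WT PAB 2 had 70.3 CPM of Col4a5 (53.6 to 54.9 in the other banded libraries). WT PAB 4 had 53.5 CPM of Itga2b, the platelet and megakaryocyte integrin alpha IIb, against 0.846 to 1.42 CPM in the other banded libraries. WT SHAM 2 had 1.29 CPM of Myo16 (3.55 to 3.86 in the other sham libraries), 81.7 of Hk1 (97.8 to 101) and 7.41 of Mx1 (3.44 to 4.11).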

How the results depend on the processing

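The number of genes past the adjusted test, 1 with edgeR, was 108 with DESeq2 and 0 with limma-voom, with limma-voom and quality weights, with the 8 WT libraries only, without WT SHAM 2 and 3, and without these and KO SHAM 4. Leaving out 1 WT library at a time gave 0 to 1, with 0 without WT SHAM 1, 2 or 4. At an unadjusted p below 0.05, 1575 genes became 775 without WT SHAM 2 and 3, 1014 without these and KO SHAM 4, and 555 without these and WT PAB 1. Leaving out 1 WT library gave 852 (without WT SHAM 2) to 2349 (without WT SHAM 4), with 903 without WT PAB 1. The difference of the banding effects passed in 0 genes in every setting. With a replicate block, 1 gene passed and 1382 had an unadjusted p below 0.05. Deviations of same-numbered WT PAB and WT SHAM libraries correlated at 0.04, 0.43, -0.24 and 0.04. Differently numbered libraries were not set beside them, so these values cannot tell whether the numbers pair the samples. The causes were not tested.

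Of 1797 values of 100 named genes, 1699 kept their direction and side of the threshold, and 81 genes never reversed. Of these genes only Dusp15 passed the adjusted edgeR test, and fits other than DESeq2 called hardly any gene. Most values could therefore hardly change side, and many of the genes were chosen by their values in these libraries. These counts are thus no test of stability. Without WT SHAM 2 and 3, and then also without WT PAB 1, the reversed log2 fold changes were -0.27 and -0.14 for Myh6, 0.33 and 0.35 for Col1a1, 0.32 and 0.31 for Col3a1, 0.17 and 0.36 for Col4a3, 0.03 and 0.16 for Col4a4, 0.07 and 0.1 for Col4a5, 0.84 and 0.73 for Postn, 0.14 and 0.16 for Lox, and 0.41 and 0.44 for Fbln5. They were 0.44 and 0.19 for Timp1, 1.12 and 0.96 for Spp1, 0.11 and 0.17 for Fasn, -0.21 and -0.14 for Atp2a2, -0.29 and -0.92 for Fos, and -0.03 and -0.94 for Gadd45b. Adipoq (2.35 and 2.4) and Plin1 (3.11 and 3.45) were near 0 in all libraries left, so these fitted values are no measured fold. Il1b kept its direction without WT SHAM 2 and 3 and reversed with WT PAB 1 also left out (-0.63). With quality weights, Atp2a2 was -0.03, Fos -0.4, Gadd45b -0.26, Il1b -0.1 and Itga2b -0.97, and with limma-voom Itga2b was -0.34. Leaving out 1 library gave -0.15 to 0.17 for Myh6, -0.13 to 0.11 for Atp2a2, -0.5 to 0.41 for Fos, -0.54 to 0.67 for Gadd45b, -0.21 to 1.41 for Il1b and -2.02 to 2.11 for Itga2b. DESeq2 called 39 of the 100 genes, against 0.802% of all genes, but many of the 100 were chosen by their values in the same libraries. Of 41 list medians, 18 moved by over 1 SD without WT SHAM 2 and 3.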

Other observations

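The immediate early genes, which respond to stimuli within minutes, summed to 3233, 1899, 1744 and 1624 CPM in WT PAB 1 to 4, against 2453, 247.3, 2103 and 2906 CPM in WT SHAM 1 to 4. WT PAB 1 was the highest of the 8 libraries in 11 of the 22 genes, against 17.0% of all genes. None of the 22 passed an unadjusted p of 0.05 between the groups in edgeR, against 11.7% of all genes. Fos had 315, 144, 78.4 and 73.1 CPM in WT PAB 1 to 4, against 159.7, 9.48, 175 and 214 CPM in WT SHAM 1 to 4.

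Erythroid genes summed to 644, 633.2, 1206 and 1281 CPM in WT PAB 1 to 4, against 1110, 1391, 802.5 and 1588 CPM in WT SHAM 1 to 4, so that the groups overlapped.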
